A study of Mus musculus with 18 samples.

Results

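The 10 genes described here, Glul, Oat, Slc1a2, Rhbg, Lect2, Lgr5, Rnf43, Znrf3, Axin2 and Tbx3, mark hepatocytes around the central vein or take part in Wnt signalling, and were read by name from a table of 16873 mouse genes. Their RNA was measured in 18 hepatocyte libraries, from mice that lack Mtdh (KO) and wild-type mice (WT) of matched age, without tumours. The cells had received TNFa, an inflammatory cytokine, TGFb, a growth factor of tissue repair, or CM, medium conditioned by Kupffer cells, the resident macrophages of the liver, that had themselves been given Py8119-EVPs (particles named for the mouse mammary tumour line Py8119). The groups were TNFa KO, TNFa WT, TGFb KO, TGFb WT, CM KO and CM WT, with 3 libraries each that are labelled as biological replicates, and all 6 groups had received a treatment, so that a treatment could be compared only with another treatment. The strain, sex and exact age of the mice, the doses and times, whether Mtdh was removed from all cells or from hepatocytes alone, and whether each library came from its own mouse are not stated in the labels. The p-values therefore measure the spread between libraries.

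The liver lobule is zoned: hepatocytes next to the central vein receive Wnt ligands and R-spondins from the endothelium there, and this signal, carried by beta-catenin, maintains their pericentral genes. Glul makes glutamine from glutamate and ammonium, and Oat, Slc1a2 and Rhbg supply that reaction with glutamate or move ammonium, which lets pericentral cells capture ammonium that escaped the urea cycle of the periportal cells. Lgr5 is a receptor for R-spondins, Rnf43 and Znrf3 are ubiquitin ligases that remove Wnt receptors from the cell surface until R-spondins restrain them, and Axin2 is a scaffold of the complex that degrades beta-catenin and a widely used readout of the pathway.

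The promoters of Glul, Oat, Slc1a2 and Lect2, the members that differed between KO and WT libraries averaged over the treatments, are shown to set out what lies at their start sites. They run from 250 bases before to 50 bases after the start in the RefSeq table of GRCm38.p6, an older build than the mm39 coordinates of the expression table, and capitals mark ATCAAAG or TTCAAAG, letters bound by the TCF/LEF partners of beta-catenin, searched on both strands. Glul lies at chr1:153899679-153899978 (+ strand), Oat at chr7:132576349-132576648 (- strand), Slc1a2 at chr2:102706188-102706487 (+ strand) and Lect2 at chr13:56548489-56548788 (- strand).
Glul: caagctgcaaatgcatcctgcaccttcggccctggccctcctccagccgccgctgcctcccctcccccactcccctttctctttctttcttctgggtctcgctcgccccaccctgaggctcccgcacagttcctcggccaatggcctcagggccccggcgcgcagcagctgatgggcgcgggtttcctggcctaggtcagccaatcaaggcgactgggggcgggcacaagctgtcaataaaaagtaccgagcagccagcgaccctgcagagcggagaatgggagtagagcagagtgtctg
Oat: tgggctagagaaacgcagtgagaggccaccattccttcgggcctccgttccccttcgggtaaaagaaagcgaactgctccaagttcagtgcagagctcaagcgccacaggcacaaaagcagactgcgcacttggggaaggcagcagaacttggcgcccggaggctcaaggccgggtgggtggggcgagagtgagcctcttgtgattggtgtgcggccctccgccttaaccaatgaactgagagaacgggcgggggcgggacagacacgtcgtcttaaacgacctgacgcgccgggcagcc
Slc1a2: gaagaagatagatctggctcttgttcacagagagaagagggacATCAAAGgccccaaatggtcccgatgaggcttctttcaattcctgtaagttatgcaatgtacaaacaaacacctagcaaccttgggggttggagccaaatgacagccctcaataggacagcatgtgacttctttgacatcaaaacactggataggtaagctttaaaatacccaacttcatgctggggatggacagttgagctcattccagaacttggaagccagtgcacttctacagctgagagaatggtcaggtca
Lect2: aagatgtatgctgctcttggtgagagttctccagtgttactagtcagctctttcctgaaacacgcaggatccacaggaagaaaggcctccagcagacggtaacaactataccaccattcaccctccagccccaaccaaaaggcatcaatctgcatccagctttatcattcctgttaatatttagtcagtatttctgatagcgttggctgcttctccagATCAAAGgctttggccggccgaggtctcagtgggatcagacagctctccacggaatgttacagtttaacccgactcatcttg
ATCAAAG occurred once in Slc1a2, 207 bases before the start, and once in Lect2, 32 bases before the start. Neither form occurred in the windows of Glul and Oat, nor in those of Axin2 and Rnf43, the other members found in the RefSeq table. Of all 32817 promoters in the table, 8.65% held at least 1 match. Promoters of Rhbg, Lgr5, Tbx3 and Znrf3 were not analysed here.

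Mtdh itself lay between 581 and 973 in the KO libraries and between 10063 and 13725 in the WT libraries, so each library matched its genotype label. These and all values below are the authors' deposited normalized values, in which 1 read was worth between 0.688 and 1.25, as estimated from the steps between low values. Estimated depth was 19.4 to 35.6 M reads. Hepatocyte markers were at high levels throughout, albumin alone taking 5.83% to 10.3% of a library's values, and their sum moved with the treatments and with genotype. With TGFb and with CM the sum was higher in all KO libraries than in all WT libraries, and with TNFa the genotypes overlapped. The sum over the 10 hepatocyte markers was 1607961 to 1678938 in TNFa KO, 3079466 to 3252096 in TGFb KO and 2532793 to 2619321 in CM KO libraries, and 1667185 to 1747161, 2226468 to 2343554 and 1964086 to 2074225 in the WT libraries of the same treatments. RNA of other liver cells was present and was higher in KO libraries. The summed value of 15 macrophage markers was 9409 to 10373 in TNFa KO libraries and 4794 to 5816 in TNFa WT libraries, 5932 to 7042 in TGFb KO and 3669 to 4263 in TGFb WT libraries, and 7150 to 7455 in CM KO and 3946 to 4554 in CM WT libraries. The summed value of 13 sinusoidal endothelial markers was 6201 to 6451 in TNFa KO and 3353 to 3819 in TNFa WT libraries, 5025 to 6205 in TGFb KO and 3741 to 4156 in TGFb WT libraries, and 4579 to 4802 in CM KO and 3084 to 3752 in CM WT libraries. Averaged over treatments, 13 of the 15 macrophage and 6 of the 13 endothelial markers were higher in KO and 0 lower. The hepatocyte markers were split: fits that left out 1 library gave 4 to 6 of the 10 higher in KO and 2 to 3 lower. Of all tested genes, 11.2% were higher and 9.53% lower in that average. Of the defining macrophage markers, Timd4 was at 0 in 4 libraries and Cd163 in 2. The part of these markers in the differences below was not tested, and in RNA from whole cultures fewer cells of a type cannot be told apart from less RNA per cell.

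The members spanned a wide range of abundance. Per kb of exon, the mean value over 18 libraries was 1547 for Oat, 695 for Lect2 and 590 for Glul, which placed them above 94.7%, 86.9% and 84.7% of tested genes. Slc1a2 (80.5 per kb), Znrf3 (79.6) and Rnf43 (60.6) lay near the middle of tested genes, at the 44.3, 44.1 and 39.7 percentiles. Rhbg (26.3 per kb), Tbx3 (15.2) and Lgr5 (8.28) were low, and Axin2 (0.913 per kb) stood at the 1.04 percentile. For comparison Cyp2e1, a cytochrome P450 of pericentral cells, had 55719 per kb. The abundant members were thus the enzymes Oat and Glul and the secreted Lect2, the carrier Slc1a2 and the ligases Znrf3 and Rnf43 were intermediate, and the receptor Lgr5, the transcription factor Tbx3 and the feedback gene Axin2 were scarce and noisy. All 10 genes passed the filter, which asked for 10 or more in 3 libraries, and Axin2 did so with exactly 3.

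**Figure D1:**
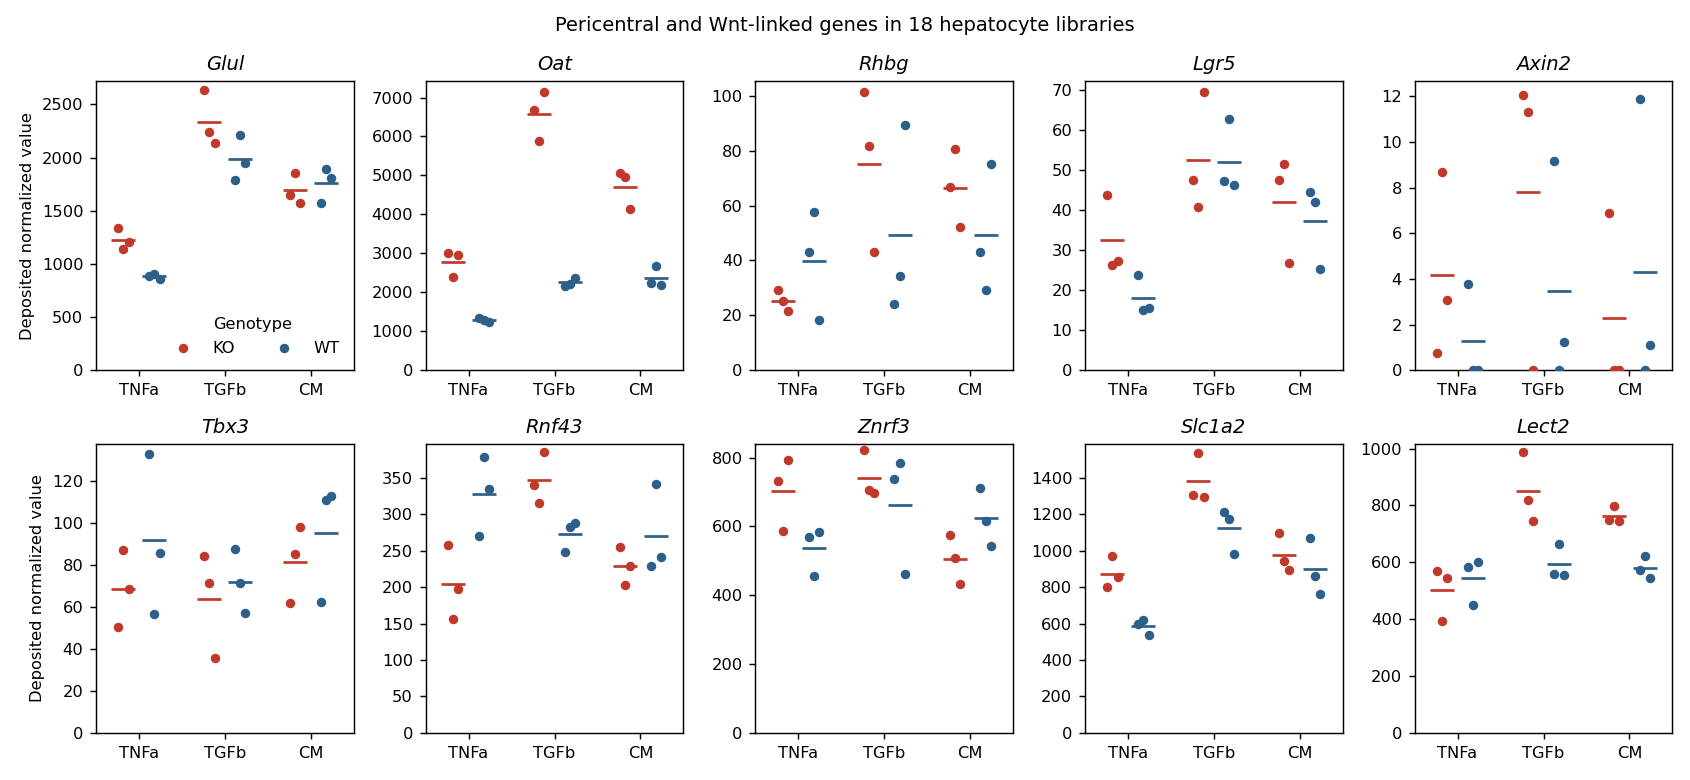
Each panel plots the deposited normalized value of 1 gene (vertical axis, from 0, scale set per gene) by treatment, with a point for each of 3 libraries and a bar for their mean, KO in red left of WT in blue. The KO points of Oat lie above all WT points in each treatment, at 5896 to 7129 against 2165 to 2372 with TGFb, while the points of Rhbg, Tbx3 and Axin2 of the 2 genotypes overlap in each treatment.

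Knockout and wild-type libraries were compared within each treatment to see which of these genes the loss of Mtdh accompanied. Oat rose in KO with all 3 treatments, Glul and Slc1a2 rose with TNFa, and Lect2 rose with TGFb. No member fell. With TNFa, 3 of 10 members were higher and 0 lower in KO, where 4.19% of all 14455 tested genes were higher and 3.7% lower, and the members' median log2 fold change was 0.43 against 0.02 for all genes. With TGFb, 2 members were higher and 0 lower, where 7.25% of genes were higher and 4.95% lower, and the members' median was 0.32 against -0.01. With CM, 1 member was higher and 0 lower, where 5.62% were higher and 3.77% lower, with medians of 0.04 and -0.01. Averaged over treatments, 4 members were higher and 0 lower, where 11.2% were higher and 9.53% lower, with medians of 0.26 and 0.00. A gene is called higher or lower where the limma adjusted p was below 0.05, and fold changes with their standard errors are on the scale of log2(value + 1). Groups without overlap were common among all tested genes. All KO libraries lay above all WT libraries for 13.3% of genes with TNFa, 13.9% with TGFb and 13.3% with CM. They lay below for 11.5%, 12.8% and 12.4%. Of all calls, 59.4% were higher in KO with TGFb, 59.9% with CM and 54.0% in the average, and these shares were 35.7%, 41.8% and 40.5% when libraries were instead scaled to equal totals, which shifted the median of all genes to -0.12, -0.09 and -0.05.

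Oat (chromosome 7, 132159207 to 132178128 on mm39) encodes ornithine aminotransferase, which turns ornithine into a precursor of glutamate. With TNFa it had 2997, 2386 and 2959 in the KO libraries, against 1342, 1297 and 1244 in the WT libraries. With TGFb its values were 6678, 5896 and 7129 in KO, against 2165, 2220.1 and 2372 in WT. With CM it had 5053, 4959 and 4127 in KO, against 2235, 2670.0 and 2182 in WT. The genotypes did not overlap in any treatment, and the KO mean was 2.15 times the WT mean with TNFa, 2.92 times with TGFb and 1.995 times with CM. The log2 fold changes were 1.10 ± 0.11 with TNFa (limma adjusted p = 1.4e-08), 1.54 ± 0.11 with TGFb (adjusted p = 4.5e-12) and 0.996 ± 0.11 with CM (adjusted p = 7.3e-08), and 1.21 ± 0.06 in the average (adjusted p = 1e-15). Each of these calls held under each alternative and without each library. The KO difference was largest with TGFb, yet the F-test of whether it differed between treatments gave an adjusted p of 0.083. That test passed without TGFb KO 2 (adjusted p = 0.047) or without CM WT 3 (adjusted p = 0.045).

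Glul (chromosome 1, 153775690 to 153785470 on mm39), glutamine synthetase, is the classical marker of the cells lining the central vein. With TNFa it had 1334, 1138 and 1204 in the KO libraries, against 884, 904 and 857 in the WT libraries. With TGFb its values were 2632, 2239 and 2139.5 in KO, against 1791, 2211 and 1949 in WT, and with CM 1652, 1857 and 1573 in KO, against 1575, 1891 and 1805 in WT. The genotypes were apart with TNFa and overlapped with TGFb and with CM. Glul rose by 0.47 ± 0.11 with TNFa (limma adjusted p = 0.0061). The difference was 0.24 ± 0.11 with TGFb (adjusted p = 0.19, 95% interval 0.01 to 0.46) and -0.05 ± 0.11 with CM (adjusted p = 0.85, interval -0.28 to 0.18). The average was 0.22 ± 0.06 (adjusted p = 0.013), and 0.17 with an adjusted p of 0.06 when libraries were scaled to equal totals.

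Slc1a2 (chromosome 2, 102489004 to 102621130) carries glutamate into cells. With TNFa it had 799, 969 and 856 in the KO libraries, against 597, 619 and 539.7 in the WT libraries, with no overlap. With TGFb its values were 1307, 1537 and 1297 in KO, against 1215, 1173 and 981 in WT, again with no overlap, and with CM 1095, 943 and 896 in KO, against 1070, 863 and 764 in WT, which overlapped. Slc1a2 rose by 0.58 ± 0.14 with TNFa (limma adjusted p = 0.006) and by 0.34 ± 0.08 in the average (adjusted p = 0.0019). The difference was 0.30 ± 0.14 with TGFb (adjusted p = 0.17) and 0.13 ± 0.14 with CM (adjusted p = 0.65).

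Lect2 (chromosome 13, 56690277 to 56696316) encodes a protein that hepatocytes secrete and is known as a beta-catenin target in mouse liver. With TGFb it had 987, 819.5 and 744 in the KO libraries, against 558, 665 and 554 in the WT libraries. With CM it had 748, 797 and 746 in KO, against 573, 620.4 and 546 in WT, and with TNFa 568, 393 and 544 in KO, against 584, 450.2 and 601 in WT. The genotypes were apart with TGFb and with CM and overlapped with TNFa. Lect2 rose by 0.52 ± 0.16 with TGFb (limma adjusted p = 0.029), while the difference was 0.40 ± 0.16 with CM (adjusted p = 0.12) and -0.13 ± 0.16 with TNFa (adjusted p = 0.73). The call with TGFb was lost without TGFb KO 1 (0.40, adjusted p = 0.18), without TGFb WT 1 (0.47, adjusted p = 0.1), without TGFb WT 3 (0.47, adjusted p = 0.11) and with equal totals (0.41, adjusted p = 0.078). The average of 0.26 ± 0.09 (adjusted p = 0.039) was lost in 11 of 18 fits that left out 1 library, with values from 0.22 to 0.32.

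Rhbg (chromosome 3, 88150181 to 88162017), a membrane channel for ammonium, was low and spread widely. With TGFb it had 101, 81.6 and 43.1 in the KO libraries, against 24.2, 34.5 and 89.5 in the WT libraries, with CM 66.7, 80.5 and 52.0 in KO, against 43.2, 29.3 and 75.3 in WT, and with TNFa 29.1, 25.4 and 21.5 in KO, against 43.1, 57.7 and 18.2 in WT. The genotypes overlapped in every treatment, and the average difference of 0.25 had a 95% interval of -0.41 to 0.91 (limma adjusted p = 0.66).

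The members of the Wnt receptor system did not pass between genotypes with any treatment. Lgr5 (chromosome 10, 115286216 to 115423686) had 43.7, 26.1 and 27.3 in TNFa KO libraries, against 23.8, 14.9 and 15.4 in TNFa WT libraries. With TGFb it had 47.4, 40.8 and 69.4 in KO, against 47.2, 62.6 and 46.1 in WT, and with CM 47.5, 51.5 and 26.7 in KO, against 44.6, 42.0 and 25.2 in WT. All TNFa KO libraries were above all TNFa WT libraries, by 0.80 ± 0.53 (limma adjusted p = 0.42), and the other treatments overlapped. The average was 0.32 with a 95% interval of -0.31 to 0.94 (adjusted p = 0.53).

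Rnf43 (chromosome 11, 87553548 to 87626366) was below WT in all TNFa KO libraries and above it in all TGFb KO libraries. With TNFa it had 258, 156 and 197 in KO, against 271, 378 and 334 in WT, and with TGFb 340, 315 and 385 in KO, against 248, 283 and 288 in WT. With CM it had 255, 202 and 229 in KO, against 229, 341 and 241 in WT, which overlapped. The log2 fold changes were -0.70 ± 0.23 with TNFa (limma adjusted p = 0.053), 0.34 ± 0.23 with TGFb (adjusted p = 0.39) and -0.22 ± 0.23 with CM (adjusted p = 0.64). The KO difference with TNFa minus that with TGFb was -1.04 ± 0.32 (adjusted p = 0.11). The TNFa difference passed without TNFa KO 1 (-0.89, adjusted p = 0.028), without TNFa WT 1 (-0.83, adjusted p = 0.045), after quantile normalization (-0.76, adjusted p = 0.031) and when only genes with a mean of at least 50 were tested (-0.70, adjusted p = 0.037).

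Znrf3 (chromosome 11, 5226324 to 5394848), which acts alongside Rnf43, did not pass with any treatment. With TNFa it had 733, 587 and 793 in KO, against 568, 456 and 583 in WT, and with TGFb 821, 705 and 696 in KO, against 737, 785 and 461 in WT. With CM it had 574, 509.5 and 433 in KO, against 712, 617 and 544 in WT. The TNFa KO libraries lay just above the TNFa WT libraries, by 0.39 ± 0.18 (limma adjusted p = 0.21), and the genotypes overlapped with TGFb (0.20 ± 0.18, adjusted p = 0.56) and with CM (-0.30 ± 0.18, adjusted p = 0.35).

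Axin2 (chromosome 11, 108811175 to 108841610) was at the detection floor. It was listed at 0 in 7 of 18 libraries, exceeded the value of 3 reads, 2.06 to 3.74 depending on the library, in 7, and reached at most 12.1, in TGFb KO 1. With TNFa it had 0.751, 8.71 and 3.07 in KO, against 3.78, 0 and 0 in WT, with TGFb 12.1, 11.3 and 0 in KO, against 9.19, 0 and 1.25 in WT, and with CM 6.88, 0 and 0 in KO, against 11.9, 0 and 1.10 in WT. No difference in Axin2 was detectable at this depth, with a standard error of 1.48 on the log2 scale in each treatment.

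Tbx3 (chromosome 5, 119808734 to 119822790), a T-box transcription factor found in pericentral hepatocytes, overlapped between genotypes in each treatment. It had 50.3, 87.1 and 68.5 in TNFa KO, against 133, 56.9 and 85.9 in TNFa WT libraries, 84.5, 71.4 and 35.9 in TGFb KO, against 87.8, 71.5 and 57.3 in TGFb WT libraries, and 61.9, 85.2 and 98.2 in CM KO, against 62.6, 111 and 113 in CM WT libraries. Its average difference was -0.27 with a 95% interval of -0.78 to 0.24 (limma adjusted p = 0.51).

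**Figure D2:**
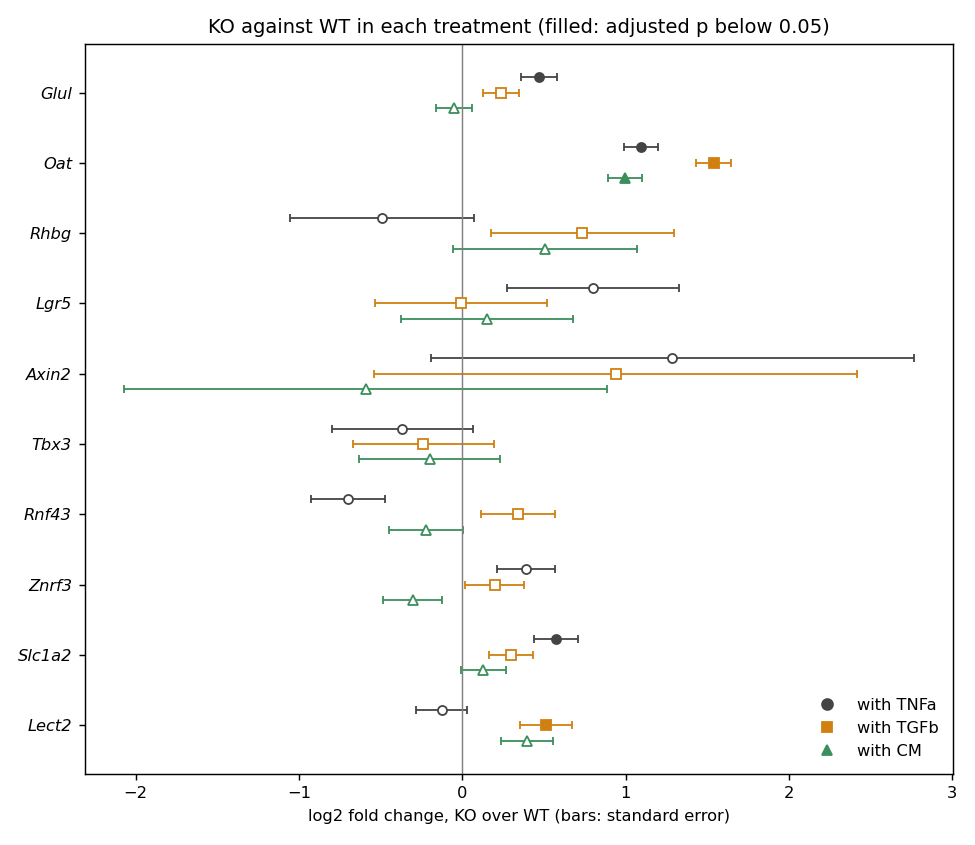
The horizontal axis gives the log2 fold change of KO over WT, with bars for its standard error, for each member (rows) with TNFa (circles), TGFb (squares) and CM (triangles), filled where the adjusted p was below 0.05. Oat lies between 0.996 and 1.54 with all 3 treatments, Rnf43 stands at -0.70 with TNFa and 0.34 with TGFb, and the bars of Axin2 reach 1.48 to either side.

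The F-test over all treatments called 1.7% of genes for a KO difference that varied with treatment and 0 of the 10 members. Before adjustment, its p was below 0.05 for 5 members, namely 0.0024 for Oat, 0.0092 for Glul, 0.010 for Rnf43, 0.018 for Lect2 and 0.029 for Znrf3, with adjusted p of 0.083, 0.16, 0.16, 0.21 and 0.26. A KO difference that passed with 1 treatment and not with another, as for Glul, Slc1a2 and Lect2, was therefore not shown to differ between treatments.

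The treatments were next compared with each other within each genotype, TNFa and CM against TGFb and CM against TNFa; each group enters 2 of these comparisons, so they are not independent. Glul, Oat and Slc1a2 were lower with TNFa than with TGFb in both genotypes. Lect2 and Rnf43 were also lower in KO. With TNFa against TGFb, 0 members were higher and 5 lower in KO, where 10.1% of genes were higher and 12.3% lower, and 0 were higher and 3 lower in WT, where 5.33% were higher and 8.06% lower. The members' median was -0.73 in KO against 0.04 for all genes, and -0.51 in WT against 0.00. The share of calls that were higher was 45.0% in KO and 39.8% in WT, and with libraries scaled to equal totals 77.0% and 61.1%, with the median of all genes at 0.29 and 0.11. Under that scaling 4 of the 5 members in KO and all 3 in WT still passed.

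In KO libraries the TNFa mean of Oat was 42.3% of the TGFb mean (-1.24 ± 0.11, limma adjusted p = 2e-10), and in WT libraries 57.5% (-0.80 ± 0.11, adjusted p = 1.7e-06). For Glul the TNFa mean was 52.5% of the TGFb mean in KO (-0.93 ± 0.11, adjusted p = 1.2e-07) and 44.5% in WT (-1.16 ± 0.11, adjusted p = 6e-09). For Slc1a2 it was 63.3% in KO (-0.66 ± 0.14, adjusted p = 0.00044) and 52.1% in WT (-0.93 ± 0.14, adjusted p = 6.9e-06). None of these 3 genes overlapped between TNFa and TGFb libraries of a genotype. Of all tested genes, 17.7% had all TNFa libraries below all TGFb libraries in KO and 16.4% in WT. Lect2 in KO stood at 59.0% (-0.77 ± 0.16, adjusted p = 0.00045) and in WT at 92.0% (-0.13 ± 0.16, adjusted p = 0.7), and the test of that difference between genotypes gave an adjusted p of 0.17. Rnf43 in KO stood at 58.8% (-0.79 ± 0.23, adjusted p = 0.01; without TNFa KO 2 -0.61, adjusted p = 0.079; with equal totals -0.53, adjusted p = 0.077) and in WT at 120.1% (0.25 ± 0.23, adjusted p = 0.56).

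Of the scarce members, Rhbg in KO and Lgr5 in WT came nearest to passing with TNFa against TGFb. Rhbg had 21.5 to 29.1 in TNFa KO libraries, against 43.1 to 101 in TGFb KO libraries (-1.46 ± 0.56, limma adjusted p = 0.061), a difference that passed without TGFb KO 3 (-1.81, adjusted p = 0.038), with a pseudocount of 5 (-1.34, adjusted p = 0.047) and after quantile normalization (-1.59, adjusted p = 0.035). Lgr5 had 14.9 to 23.8 in TNFa WT libraries, against 46.1 to 62.6 in TGFb WT libraries (-1.49 ± 0.53, adjusted p = 0.059), which passed with a pseudocount of 5 (-1.31, adjusted p = 0.047) and without a filter (adjusted p = 0.033). Neither pair of groups overlapped, and TNFa libraries likewise lay below all TGFb libraries for 17.7% of tested genes in KO and 16.4% in WT. Tbx3 stood 0.15 higher in KO and 0.28 higher in WT, with standard errors of 0.43.

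With CM against TNFa, 3 members were higher and 0 lower in each genotype, where 8.38% of genes were higher and 4.32% lower in KO, and 6.81% higher and 5.46% lower in WT. The members' median was 0.30 in KO against -0.02 for all genes, and 0.48 in WT against 0.04. Of all calls 66.0% were higher in KO and 55.5% in WT, against 31.5% and 44.7% with equal totals and, in KO, 55.5% after quantile normalization, and equal totals moved the median of all genes in KO to -0.17. Oat rose by 0.76 ± 0.11 in KO (limma adjusted p = 3.7e-06) and by 0.86 ± 0.11 in WT (adjusted p = 7.2e-07). Glul rose by 0.47 ± 0.11 in KO (adjusted p = 0.0038; with equal totals 0.31, adjusted p = 0.051) and by 0.99 ± 0.11 in WT (adjusted p = 1.8e-07). Lect2 rose in KO by 0.62 ± 0.16 (adjusted p = 0.0064; without TNFa KO 2 0.46, adjusted p = 0.076) and was 0.10 ± 0.16 higher in WT (adjusted p = 0.77). Slc1a2 rose in WT by 0.61 ± 0.14 (adjusted p = 0.0023) and was 0.16 ± 0.14 higher in KO (adjusted p = 0.53).

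With CM against TGFb, 0 members were higher and 4 lower in KO, where 5.2% of genes were higher and 5.39% lower, and 0 were higher and 0 lower in WT, where 5.76% were higher and 6.09% lower. By limma, 1 member in WT had an unadjusted p below 0.05, Slc1a2 (-0.33 ± 0.14, limma adjusted p = 0.12), and it passed without CM WT 1 (-0.46, adjusted p = 0.039). The members' median was -0.47 in KO against 0.00 for all genes, and -0.03 in WT against 0.02. Of all calls 49.1% were higher in KO and 48.6% in WT, against 71.6% and 63.8% with equal totals, which moved the median of all genes in KO to 0.10. In KO, Oat fell by 0.48 ± 0.11 (adjusted p = 0.0024) and Glul by 0.46 ± 0.11 (adjusted p = 0.0058; without TGFb KO 1 -0.37, adjusted p = 0.058). Slc1a2 fell by 0.50 ± 0.14 in KO (adjusted p = 0.015), and this call was lost with equal totals (-0.40, adjusted p = 0.055) and without TGFb KO 2 (-0.42, adjusted p = 0.076), CM KO 2 (-0.47, adjusted p = 0.056) or CM KO 3 (-0.44, adjusted p = 0.083). Znrf3 fell by 0.56 ± 0.18 in KO (adjusted p = 0.042), and this call was lost with equal totals (-0.46, adjusted p = 0.095) and in 5 of 6 fits that left out 1 library, with adjusted p up to 0.2.

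The hepatocyte markers moved with the treatments in the same way. With TNFa against TGFb, 9 of 10 were lower in KO and 6 of 10 in WT, where 12.3% and 8.06% of all tested genes were lower. With CM against TNFa, 10 of 10 were higher in KO and 6 of 10 in WT, where 8.38% and 6.81% of genes were higher. The count of 10 was reached in no fit that left out a library: such fits gave 8 to 9 in KO and 6 to 7 in WT. For TNFa against TGFb they gave 9 to 10 lower in KO and 6 in WT. The part of this hepatocyte marker shift in the members' treatment differences was not tested.

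**Figure D3:**
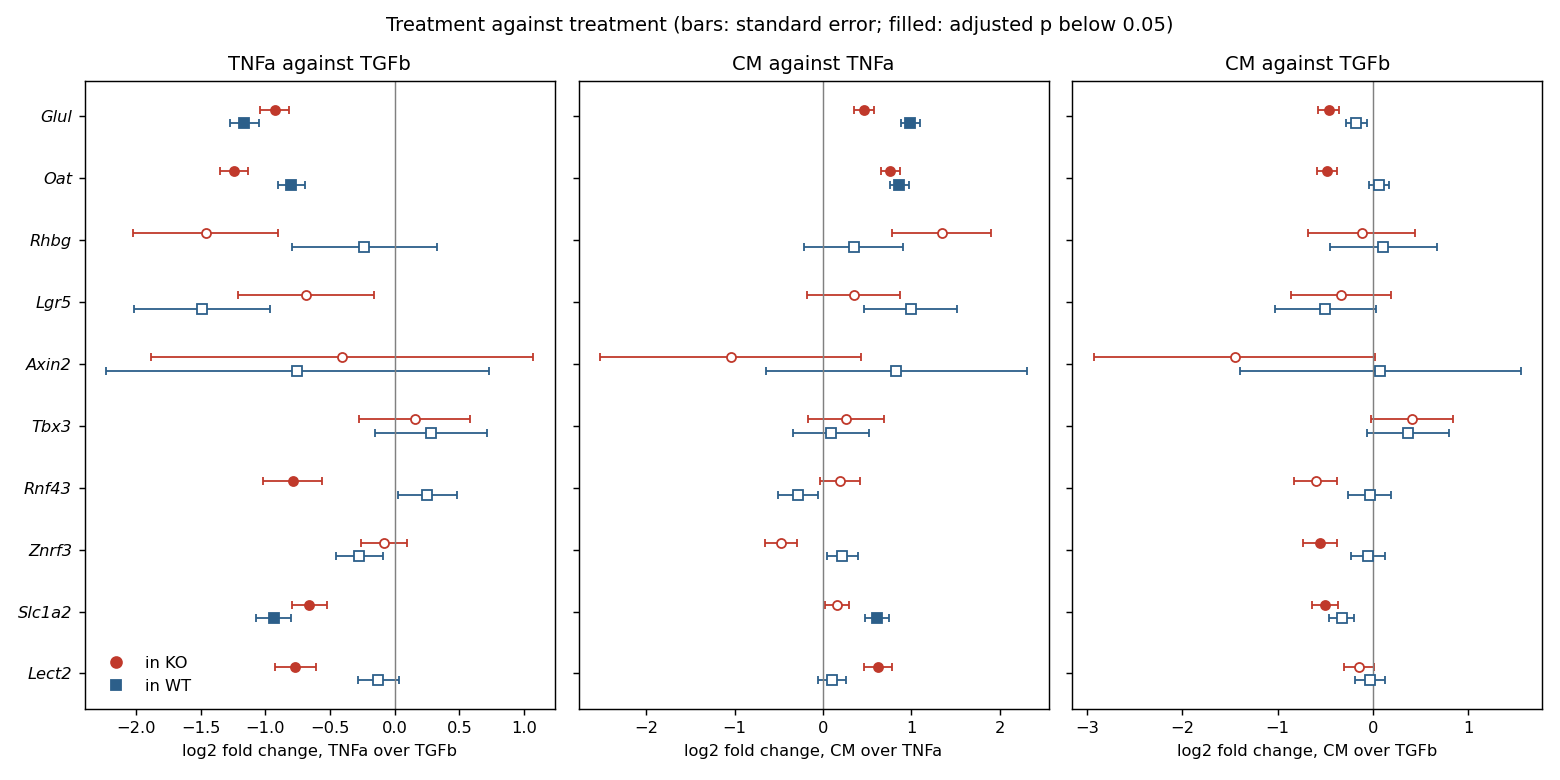
The panels give the log2 fold change of TNFa over TGFb (left), CM over TNFa (middle) and CM over TGFb (right) for each member, with bars for the standard error, in KO (red circles) above WT (blue squares), filled where the adjusted p was below 0.05. Glul, Oat and Slc1a2 lie left of 0 in both genotypes in the left panel, from -1.24 to -0.66, and the right panel has filled points in KO for Glul, Oat, Znrf3 and Slc1a2 and none in WT.

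By mean value, Oat stood highest in TGFb KO (6568 ± 624, SD, n = 3), then in CM KO (4713 ± 510), TNFa KO (2781 ± 342), CM WT (2362 ± 268), TGFb WT (2253 ± 107) and TNFa WT (1294 ± 48.8). CM WT and TGFb WT differed by less than their spread, and the libraries of TNFa KO and CM WT overlapped. Glul stood highest in TGFb KO (2337 ± 260), then in TGFb WT (1983 ± 212), CM WT (1757 ± 163), CM KO (1694 ± 147), TNFa KO (1226 ± 99.7) and TNFa WT (882 ± 23.6). Neighbours from TGFb KO down to CM KO overlapped, and both TNFa groups lay below all others.

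The genes around these members in the same metabolism and zone were counted next, from lists that leave out the 10 members. The lists were chosen with earlier results of these data known, so their counts only describe these libraries. Across all tested genes, 11.2% were higher and 9.53% lower in KO averaged over treatments. Of 22 tested genes that handle glutamate, ornithine and ammonium, 14 were higher and 0 lower in that average, with a median of 0.54. They included Gls2, the liver glutaminase (1.30 ± 0.06, limma adjusted p = 1.7e-16), the mitochondrial ornithine carrier Slc25a15 (0.97 ± 0.05, adjusted p = 7.8e-16) and Slc38a4 (0.97 ± 0.05) and Otc (0.84 ± 0.05), an amino acid carrier and an enzyme of the urea cycle. Gls2 and Otc also stand in the periportal list below. Glud1, glutamate dehydrogenase, did not pass (0.11 ± 0.05, adjusted p = 0.088). With TNFa 8 of the listed genes were higher, with CM 11 and with TGFb 12, and 0 were lower with any treatment. The shares of all tested genes that were higher were 4.19%, 5.62% and 7.25%. Without 1 library, 7 to 8 listed genes were higher with TNFa and 9 to 10 with CM. With TGFb such fits gave 11 to 13 higher and 0 to 1 lower. With TNFa against TGFb 1 was higher and 10 lower in KO, and 2 were higher and 7 lower in WT. For all tested genes these shares were 10.1% higher and 12.3% lower in KO, and 5.33% and 8.06% in WT.

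Of 18 other pericentral genes 9 were higher and 4 lower in KO averaged over treatments, with a median of 0.24. Cyp2a5 (1.05 ± 0.05), a cytochrome P450, and Rgn (0.63 ± 0.05), which makes a precursor of vitamin C, were higher, as were Cyp1a2 (0.64 ± 0.06, limma adjusted p = 3e-10) and Cyp2e1 (0.23 ± 0.05, adjusted p = 0.0015). Csad, an enzyme of taurine synthesis, had a log2 fold change of -3.005 ± 0.14 (adjusted p = 1.3e-16) and Cldn2, a claudin of cell junctions, of -0.92 ± 0.08 (adjusted p = 1.9e-10). Csad had 60.9 to 108 in TNFa KO and 644 to 799 in TNFa WT libraries. Periportal genes, the opposite zone, counted 14 higher and 3 lower of 18, with a median of 0.84, and Hal, which degrades histidine, was higher by 2.04 ± 0.08 (adjusted p = 6.5e-18). Both zones thus held genes called in each direction between genotypes, where 11.2% of all tested genes were higher and 9.53% lower, and the periportal median was the larger. Within single treatments and without 1 library, periportal genes counted 11 higher with TNFa, 14 with TGFb and 11 to 12 with CM, with at most 1 lower. Pericentral genes counted 3 to 4, 8 to 10 and 4 to 5 higher, and 3 to 4, 2 to 3 and 2 to 3 lower. With all libraries, the shares of all tested genes were 4.19%, 7.25% and 5.62% higher, and 3.7%, 4.95% and 3.77% lower. With TNFa against TGFb 0 pericentral genes were higher and 13 lower in KO (median -1.07), and 0 were higher and 12 lower in WT (median -0.63), while periportal genes counted 1 higher and 14 lower in KO (median -0.93), and 1 higher and 12 lower in WT (median -0.46). Of all tested genes, 12.3% were lower in KO and 8.06% in WT. Without 1 library, 8 to 13 periportal and 11 to 13 pericentral genes were lower in WT.

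The genes that send and carry the Wnt signal were counted in the same way between genotypes, averaged over treatments, where 11.2% of all tested genes were higher and 9.53% lower in KO. Of 10 tested ligands, R-spondins and secretion genes 1 was higher and 0 lower, namely Wls, which escorts Wnt proteins to the surface (0.72 ± 0.21, limma adjusted p = 0.012). Wnt2, a ligand of the liver endothelium, had 46.8 to 64.4 in TNFa KO and 4.55 to 29.9 in TNFa WT libraries, 0 to 26.9 in TGFb KO and 0 to 15.3 in TGFb WT libraries, and 44.2 to 55.7 in CM KO and 2.16 to 32.2 in CM WT libraries, with an average difference of 1.38 ± 0.62 (adjusted p = 0.12). The part of endothelial RNA in the Wnt2 values was not tested. Rspo3, the main R-spondin of the central vein, was 0 to 55.3 over all libraries (-0.48 ± 0.53, adjusted p = 0.6). Wnt9b was not analysed here.

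Of 14 tested Wnt receptors 1 was higher and 3 lower. Fzd6 was lower (-0.99 ± 0.16, limma adjusted p = 2.3e-05), as were Ror1 (-0.55 ± 0.19, adjusted p = 0.035) and the co-receptor Lrp5 (-0.25 ± 0.07, adjusted p = 0.0083), and Fzd4 was higher (0.31 ± 0.07, adjusted p = 0.0016). Fzd6 had 58.9 to 76.8 in CM KO and 206 to 256 in CM WT libraries. Lrp6 (-0.08 ± 0.05, adjusted p = 0.28) and Lgr4, the abundant relative of Lgr5 (0.00 ± 0.07, adjusted p = 0.98), did not pass. Of 21 core genes of the signal 0 were higher and 1 lower, Ctnnb1, which encodes beta-catenin (-0.23 ± 0.05, adjusted p = 0.0014), and with libraries scaled to equal totals 6 were lower. The receptors then counted 1 higher and 5 lower of 13 tested. Over all genes, equal totals gave 1365 higher and 2009 lower in the average, against 1614 and 1377 as reported. The transcription factor Tcf7l2 stood at 0.02 ± 0.13 (adjusted p = 0.93). Of 9 tested inhibitors and targets 1 was higher and 2 lower, with Sox9 (-0.31 ± 0.08, adjusted p = 0.0029) and Apcdd1 (-1.56 ± 0.47, adjusted p = 0.016) lower and Ccnd1 higher (0.20 ± 0.07, adjusted p = 0.038), where equal totals gave 0 higher and 3 lower.

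**Figure D4:**
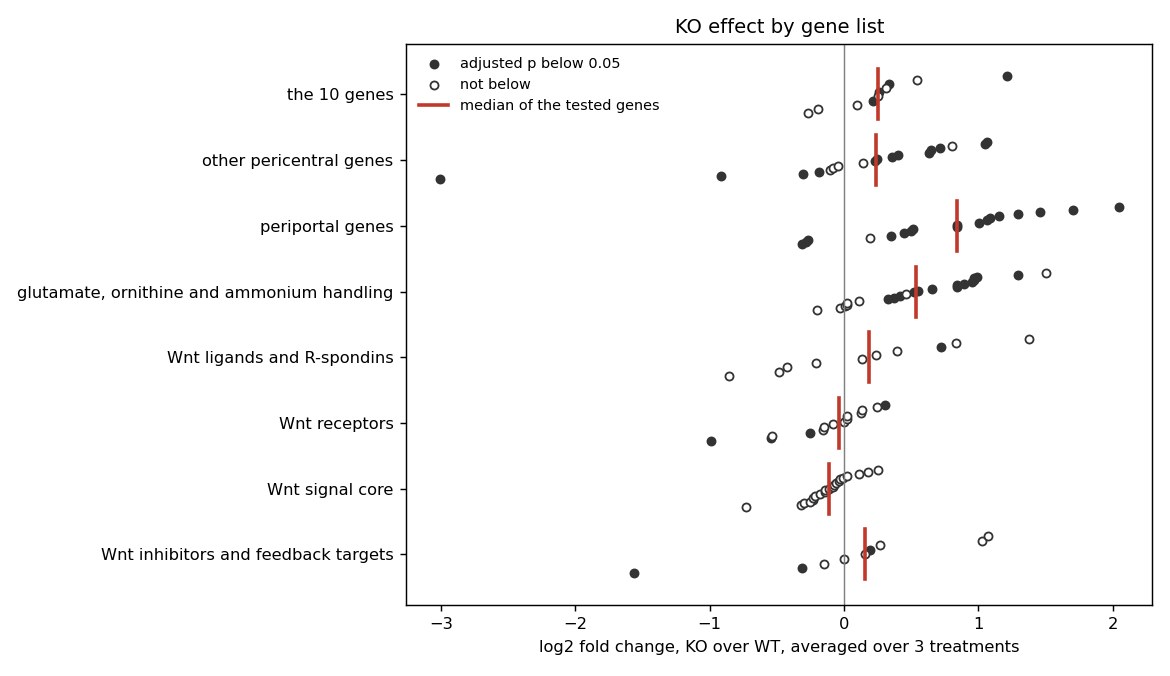
Each point is a tested gene, placed by its log2 fold change of KO over WT averaged over 3 treatments (horizontal axis) in the row of its list, filled where the adjusted p was below 0.05, and the red bar is the list's median. The medians are 0.26 for the 10 genes, 0.24 for other pericentral genes, 0.84 for periportal genes and 0.54 for glutamate, ornithine and ammonium handling, and the 4 Wnt lists lie between -0.11 and 0.19.

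Genes with the pattern nearest to a member's were found by the root mean square difference of their 6 group means on the log2 scale, each gene centred on its own mean, among tested genes whose mean value was 50 or more. Genes with names of the Gm-number or Rik form were left out of this search. Nearest to Oat were Aldh1l1, an enzyme of folate metabolism (0.060), Cyp2c38 (0.075) and Hpd, which degrades tyrosine (0.080), where the group means of Oat itself varied by 0.758. Nearest to Glul were Igfbp3 (0.067), Ing2 (0.089) and Ggcx (0.096), against its own 0.464. For Slc1a2 they were Acmsd (0.098), Ssbp3 (0.099) and Atpaf2 (0.103), against 0.377, and for Lect2 Txndc15 (0.044), Cmc1 (0.045) and Dhrs4 (0.051), against 0.273. Glul was itself among the 3 genes nearest to Lgr5, at 0.138 against Lgr5's own 0.506. The measure covers 6 points per gene and carries no test.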

How the data were processed

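RNA of 18 hepatocyte libraries (6 groups of 3) was analysed. The authors deposited a normalized signal per gene, scaled by the authors with DESeq2 according to the file's name. The submitters' processing notes by the authors list the mm39 build, DESeq2, STAR 2.7.8a and Partek without settings. Whole reads could not be recovered (80.5% to 84.0% of values up to 20 reads lay within 0.05 reads of a whole number), so no count model was used. After adding 1 and taking log2, 14455 genes with at least 10 in at least 3 libraries were fitted with limma-trend (limma 3.58.1, R 4.3.3; 6 group means, 12 residual and 17.0 prior degrees of freedom), with Benjamini-Hochberg adjustment over all tested genes, a threshold of 0.05 and 95% intervals. Exon lengths were those of GENCODE M21 protein-coding transcripts, known for 14369 tested genes; Python 3.11.15, pandas 2.3.3 and matplotlib 3.10.9 made tables and figures. Floors and steps cover counting error only. The members and the lists around them were chosen with earlier results of these data known. From lists, up to 4 called genes with the smallest p could be named, plus Ctnnb1, Tcf7l2, Lgr4, Lrp5, Lrp6, Wnt2, Wnt9b, Rspo3, Cyp2e1 and Cyp1a2; Glud1 was chosen after its values were seen. Libraries with 1 replicate number were not treated as paired, since nothing says what the number marks. Deviations were correlated above 0.1 in 0 of 9 same-numbered KO and WT pairs of a treatment. The same held for 0 of 18 same-numbered pairs of 1 genotype across treatments. Alternatives were another pseudocount (0.5 or 5), no filter, a mean of at least 50, equal totals, quantile normalization, fitting just the compared groups, a replicate block and leaving out each library.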

Additional observations from a re-analysis of the deposited data

Results flagged for a closer look

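Rnf43 was marked because every KO library lay below every WT library with TNFa and above every WT library with TGFb. Among all tested genes, all KO libraries lay below all WT libraries for 11.5% with TNFa, and above them for 13.9% with TGFb. The KO difference with TNFa minus that with TGFb was -1.04 ± 0.32 on the log2 scale, and the test of that difference gave a limma adjusted p of 0.11.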

How the results depend on the processing

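Over all members, comparisons and alternatives 1848 values were recomputed, of which 1798 kept their call, 35 lost it, 15 gained it and 0 called values changed sign; 51 values that were not called changed sign. With equal totals the members counted higher in KO were 1 with TGFb (2 as reported) and 2 in the average (4), and those counted lower were 1 with CM against TNFa in KO (0; Znrf3 -0.63, adjusted p = 0.011) and 2 with CM against TGFb in KO (4; Znrf3 -0.46, adjusted p = 0.095, and Slc1a2 -0.40, adjusted p = 0.055, were lost). Quantile normalization gave 1 lower in KO with TNFa (0; Rnf43) and 1 lower with CM against TNFa in KO (0; Znrf3 -0.52, adjusted p = 0.048), and moved Lect2's average to 0.24 (adjusted p = 0.057). A mean of at least 50 gave 1 lower in KO with TNFa (0), and fits of only the groups compared gave 1 higher with TGFb (2; Lect2 0.52, adjusted p = 0.054). Without a filter Znrf3 lost its call with CM against TGFb in KO (adjusted p = 0.087). The cause of these changes was not tested.

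Leaving out 1 library, members higher in KO ranged from 3 to 3 with TNFa, 1 to 2 with TGFb, 1 to 1 with CM and 3 to 4 in the average, and members lower in KO from 0 to 1 with TNFa. Members lower ranged from 4 to 6 with TNFa against TGFb in KO, 3 to 3 in WT, 0 to 1 with CM against TNFa in KO, 2 to 4 with CM against TGFb in KO and 0 to 1 in WT, members higher from 2 to 3 with CM against TNFa in KO, and the F-test called 0 to 1. The replicate number as a block, additive or within genotype (correlation 0.0059), changed no member's call; in the average it gave 4 higher, as reported. Averaged over treatments and without 1 library, Wnt ligands counted 1 to 2 higher, Wnt receptors 2 to 3 lower, core genes 1 to 3 lower and inhibitors and targets 0 to 2 higher and 1 to 2 lower.

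Counts over all genes moved by over 1.5 times in some settings. With equal totals 1494 genes were lower in KO with TGFb (716 as reported), 874 with CM (545) and 1906 with CM against TNFa in KO (624); 3756 were higher and 1119 lower with TNFa against TGFb in KO (1458 and 1779), 1370 higher in WT (771), and 1243 higher and 492 lower with CM against TGFb in KO (751 and 779). Fits of only the groups compared gave 387 higher and 332 lower in KO with TNFa (606 and 535), 516 and 279 with CM (813 and 545), 579 and 325 with CM against TNFa in WT (985 and 789) and 582 lower with CM against TGFb in WT (880). The F-test called 105 genes without a filter and 111 to 521 without 1 library (246). Depth limits Axin2, which exceeded the value of 3 reads in 7 of 18 libraries.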

Other observations

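Among Wnt genes not described above, Cd44, a surface receptor and target of the pathway, fell with CM against TNFa by 0.63 ± 0.11 in KO (limma adjusted p = 9.7e-05) and by 0.54 ± 0.11 in WT (adjusted p = 0.00095). Wnt5a, a ligand of other Wnt branches, fell with CM against TGFb by 1.31 ± 0.39 in KO (adjusted p = 0.028) and by 1.58 ± 0.39 in WT (adjusted p = 0.0066). The receptor gene Fzd7 fell with TNFa against TGFb by 1.31 ± 0.17 in KO (adjusted p = 8.2e-07) and by 0.79 ± 0.17 in WT (adjusted p = 0.0016). Lgr4 rose with CM against TNFa by 0.45 ± 0.11 in KO (adjusted p = 0.0062) and by 0.35 ± 0.11 in WT (adjusted p = 0.037).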
